A study of Vuilleminia comedens with 3 samples.

Results

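The autophagy genes of Vuilleminia comedens, a crust-forming fungus that decays wood, were described in mycelium growing in beech. Members were the assembled transcripts whose best database match carried the word autophagy in its product name, without regard to case. This gave 6 of 81106 transcripts, or of the 22605 transcripts with a database match, and they came from 4 assembler genes, the clusters of related transcripts in the names of the assembly. Poly(A) RNA was sequenced from 3 replicates of a single group, all of strain VcWVJH1 at 20 °C, each from paired wood blocks with the same strain on both sides. The blocks had been colonised for about 8 weeks and were then paired for 7 days, and material came from the side in contact. No untreated, starved or differently paired group was analysed here, so all values are levels under this condition and no test between conditions was possible.

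Autophagy is the process by which a eukaryotic cell wraps part of its own cytoplasm in a double membrane and delivers it to the vacuole for breakdown. ATG8, a small ubiquitin-like protein, is attached to a lipid of the growing membrane, and a conjugate of ATG12 with ATG5, bound to ATG16, promotes that attachment. ATG6 belongs to a lipid kinase complex, ATG9 is a membrane protein of the vesicles that start the structure, and ATG22 in Saccharomyces cerevisiae exports amino acids from the vacuole after breakdown. In filamentous fungi the pathway is known for recycling the contents of older hyphae and for the response to nutrient shortage.

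Of the 6 members, 4 matched autophagy-like protein 8 (PUNSTDRAFT_53150) of Punctularia strigosozonata, here called ATG8. The other 2 matched autophagy-type protein 22 of Trametes versicolor, here called ATG22. The 4 ATG8 transcripts came from 3 assembler genes, and both ATG22 transcripts were isoforms of the same assembler gene. These names are those of the matched entries in other species and not functions measured in V. comedens. The 4 ATG8 transcripts share a target entry and are not replicates of each other. Whether they are copies, alleles or pieces of one gene was not tested, and the rule that divided reads shared among them is not stated in the labels or file headers.

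The 3 libraries, whose count columns carried no names and which are called A, B and C, held 111754018, 68151997 and 64236917 counts. A pair of transcripts without an autophagy name took 67.0% to 70.1% of them. Levels are given as RPKM, reads per 1000000 counts and kilobase of transcript, and CPM is counts per 1000000 without the length. The members together held 26591 reads in library A, or 0.0238% of its counts (exact Clopper-Pearson 95% interval 0.0235 to 0.0241). In library B their 12422 reads were 0.0182% (0.0179 to 0.0186). Library C had 15522, which is 0.0242% of its total (0.0238 to 0.0245). The labels name no molecular identifiers to mark PCR copies, so these intervals and the Poisson intervals below describe counting error alone. Levels are shares of the RNA of each library and give neither the amount of mycelium nor the RNA per hypha.

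ATG8 transcripts were abundant and ATG22 transcripts were not. The summed level of the 6 members was 489, 337 and 440.3 RPKM in A, B and C, or 422 ± 77.6 (SD, n = 3). ATG8 made up 99.2% of that sum in library A and 99.3% in libraries B and C. The ATG8 sum was 419 ± 76.9 RPKM and the ATG22 sum 3.00 ± 0.736 RPKM (SD, n = 3 each). The ratio of the ATG8 sum to the ATG22 sum was 130.1, 148 and 146 in A, B and C. All 6 members had a mean of at least 1 RPKM, against 37.9% of annotated transcripts, and all 6 had at least 10 reads in every library, against 53.9%. The median of the members was 36.1 ± 3.64 RPKM (SD, n = 3), and the median over all annotated transcripts was 0.500 ± 0.0768 RPKM (SD, n = 3). The members' median lies between the ATG8 isoforms of a single assembler gene, TRINITY_DN19429_c1_g1, and so describes that gene. The median over annotated transcripts includes those with few reads. Relative to the counts outside the pair of most abundant transcripts, the members' sum was 1362 reads per 1000000 such counts and kilobase.

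**Figure D1:**
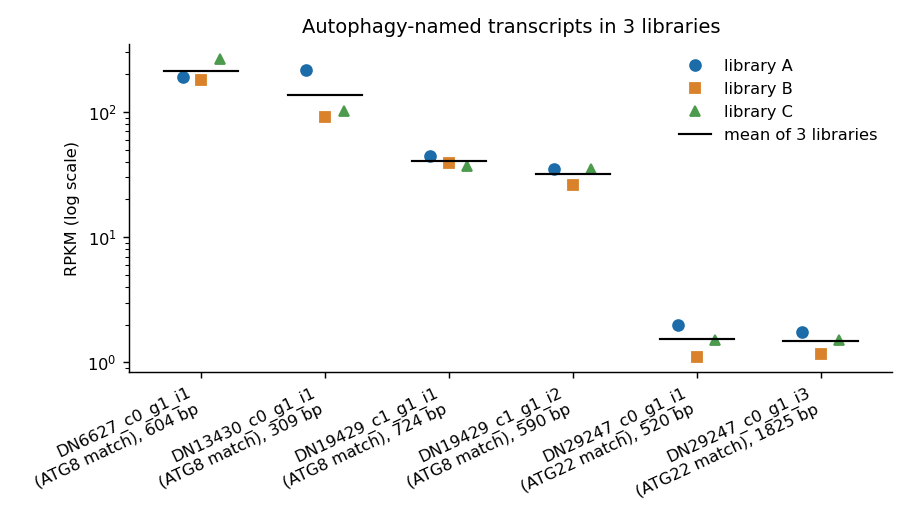
RPKM on a log axis for each of the 6 autophagy-named transcripts in libraries A, B and C (points), with the mean of the 3 libraries as a line and the transcript length under each name. The 4 ATG8 transcripts lie between 26.2 and 264 RPKM and both ATG22 transcripts between 1.10 and 1.98 RPKM, with library A alone high for DN13430_c0_g1_i1.

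The most abundant member was the ATG8 transcript TRINITY_DN6627_c0_g1_i1 of 604 bp. Its reads numbered 12689, 7345 and 10251 in A, B and C, which is 188, 178 and 264 RPKM. Library C was the high one, and its Poisson interval of 259 to 269 RPKM did not overlap those of library A (185 to 191) or library B (174 to 183). The mean was 210.2 ± 47.0 RPKM (SD, n = 3), and the highest and lowest library differed 1.48-fold. By mean RPKM it ranked 113 among the 11455 annotated transcripts with at least 100 reads in all. Its level stood near that of actin 1 (TRINITY_DN25000_c0_g1_i1), the filament protein of the cytoskeleton, at 213, 211 and 190.2 RPKM in A, B and C. The ratio of the ATG8 transcript to actin 1 was 0.883, 0.847 and 1.39 in libraries A, B and C, so the order was not the same in all libraries. The tubulin beta chain TRINITY_DN24117_c0_g1_i1 had 168, 184 and 195 RPKM.

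The second ATG8 transcript, TRINITY_DN13430_c0_g1_i1, was the shortest member at 309 bp. It had 7507, 1918 and 2016 reads in libraries A, B and C, or 217, 91.1 and 102 RPKM. Library A was more than 2-fold above library B, and libraries B and C lay close to each other. The mean was 137 ± 70.1 RPKM (SD, n = 3), and 96.3 without library A. The ratio of TRINITY_DN6627_c0_g1_i1 to this transcript was 0.865, 1.96 and 2.60 in A, B and C. Their ranges over libraries overlapped, so the order of these ATG8 transcripts per length rests on libraries B and C.

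The remaining ATG8 transcripts were isoforms of the same assembler gene. TRINITY_DN19429_c1_g1_i1, of 724 bp, had 44.6, 38.9 and 36.8 RPKM in A, B and C, or 40.1 ± 4.01 (SD, n = 3). It varied least of the 6, with 1.21-fold between its highest and lowest library. TRINITY_DN19429_c1_g1_i2, of 590 bp, had 35.1, 26.2 and 34.7 RPKM, or 32.0 ± 5.01 (SD, n = 3), with library B the low one. The first isoform was above the second in all 3 libraries, by 1.27-fold in A, 1.48-fold in B and 1.06-fold in C. The ratio of TRINITY_DN13430_c0_g1_i1 to TRINITY_DN19429_c1_g1_i1 was 4.88, 2.34 and 2.76, and their ranges did not overlap.

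Within the ATG8 sum, TRINITY_DN6627_c0_g1_i1 held 38.8%, 53.3% and 60.4% in A, B and C. TRINITY_DN13430_c0_g1_i1 held 44.8%, 27.2% and 23.2%. Per length, the leading ATG8 transcript was thus another one in library A than in libraries B and C. Without the length, TRINITY_DN6627_c0_g1_i1 led in library A too, with 114 CPM against 67.2 CPM. The isoforms of the third assembler gene kept smaller shares, of 8.42% to 11.6% for i1 and 7.24% to 7.94% for i2.

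Both ATG22 transcripts were isoforms of TRINITY_DN29247_c0_g1. The longer, TRINITY_DN29247_c0_g1_i3 of 1825 bp, had 357, 144 and 176 reads in libraries A, B and C. That is 1.75 RPKM (Poisson 95% interval 1.57 to 1.94), 1.16 RPKM (0.976 to 1.36) and 1.50 RPKM (1.29 to 1.74). The shorter, TRINITY_DN29247_c0_g1_i1 of 520 bp, had 115, 39 and 50 reads, or 1.98 RPKM (1.63 to 2.38), 1.10 (0.783 to 1.50) and 1.50 (1.11 to 1.97). For both isoforms the intervals of libraries A and B were apart, and that of library C overlapped both. The means were 1.47 ± 0.298 RPKM for i3 and 1.53 ± 0.440 RPKM for i1 (SD, n = 3 each), with ranges that overlapped. They ranked 7295 and 7187 among the 11455 annotated transcripts.

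A further isoform of that assembler gene, TRINITY_DN29247_c0_g1_i2 of 1293 bp, had another best match and is not a member. Its entry was an MFS general substrate transporter (PUNSTDRAFT_127423) of P. strigosozonata. It had 1.09, 0.976 and 0.915 RPKM in A, B and C. The database thus gave isoforms of a single assembler gene both the name autophagy-type protein 22 and that of a general transporter. These names need not exclude each other, and whether they stand for different proteins was not tested. The ATG22 name rests on the best match of each isoform. Vacuolar amino acid permeases, a class of transporters that move amino acids across the vacuole membrane, were looked up after the annotation had been seen. Of their 5 transcripts, 2 reached 1 RPKM, and the highest, TRINITY_DN28344_c0_g1_i1, had 2.03, 2.74 and 1.83 RPKM in A, B and C. Its isoform TRINITY_DN28344_c0_g1_i2 had 1.42, 2.17 and 1.52.

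The libraries did not deviate in the same way for all members. Library A was the highest for 5 of the 6 members and library C for TRINITY_DN6627_c0_g1_i1, while 30.0% of the 31168 transcripts that reached 10 reads in each library were highest in A. With edgeR's TMM or DESeq2's size factors in place of the library total, library A was highest for 4 members and library C for 2. Of the 31168 transcripts, 27.7% were then highest in A and 35.5% in C under TMM, and 25.4% and 36.5% under DESeq2. Library B was the lowest for 5 members, against 30.2% of the 31168. Relative to the counts outside the pair of most abundant transcripts it was the lowest for all 6, against 38.7% under that scaling. Isoforms of the same assembler gene are counted separately here. Over 2-fold between the highest and lowest library lay 1 of the 6 members, TRINITY_DN13430_c0_g1_i1 with 2.39-fold, against 24.0% of those 31168 transcripts, and none of the 6 without library A, against 13.5% of them between libraries B and C alone. The coefficient of biological variation is the spread between replicates beyond counting error. As estimated by edgeR it was 0.237 to 0.318 for the members, and its median was 0.273 over those 31168 transcripts. EdgeR draws each transcript's estimate towards a value common to all transcripts, here 0.280. These estimates are therefore not each member's own spread, and their nearness to the median says little about the members. The lowest estimate belonged to TRINITY_DN19429_c1_g1_i1, with 40.1 ± 4.01 RPKM, and the highest to TRINITY_DN13430_c0_g1_i1, with 137 ± 70.1 RPKM (SD, n = 3 each).

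**Figure D2:**
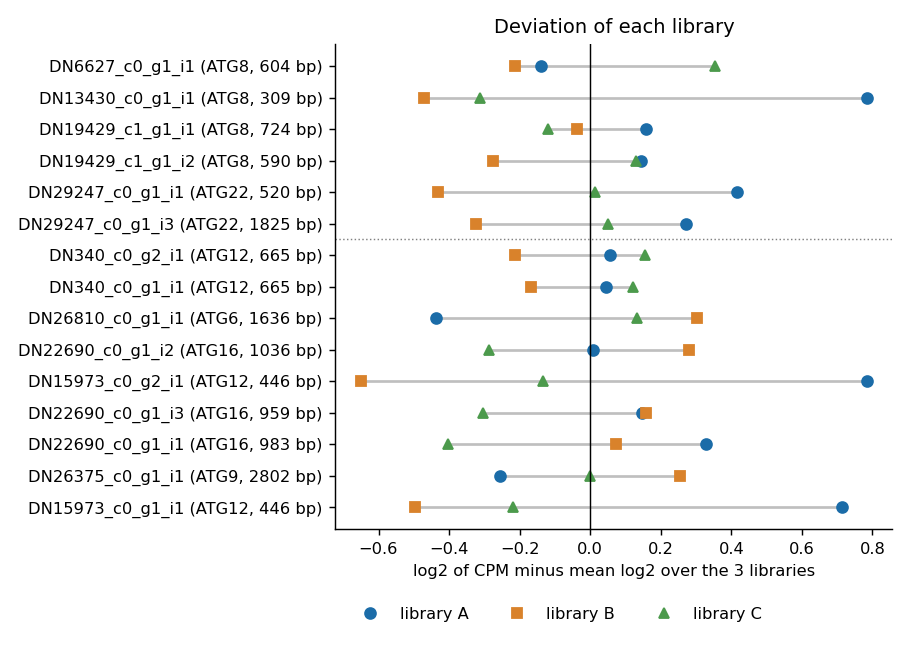
Deviation of each library from the mean of the 3 libraries in log2 CPM, for the 6 autophagy-named transcripts (above the dotted line) and 9 transcripts of other autophagy proteins that reached 10 reads in each library. Library A lies far to the right for the ATG8 transcript DN13430_c0_g1_i1, with 2.39-fold between its highest and lowest library, and for both DN15973 ATG12 transcripts, with 2.70-fold and 2.31-fold.

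Other autophagy proteins were found under the older APG names or as ATG domain names. A list of such names held 12 transcripts of 10 assembler genes, of which 10 matched T. versicolor and 2 matched P. strigosozonata. These named ATG12, ATG16, ATG6 and ATG9, and 9 of the 12 reached 10 reads in each library and a mean of at least 1 RPKM. The words used named no further autophagy protein, which leaves out any that carry another product name. The median of the list was 3.69 ± 0.551 RPKM (SD, n = 3).

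ATG12, the ubiquitin-like partner of ATG5, had 5 transcripts. TRINITY_DN340_c0_g2_i1 had 9.998, 8.30 and 10.7 RPKM in A, B and C, and TRINITY_DN340_c0_g1_i1 had 9.41, 8.12 and 9.93. Both were 665 bp long and came from different assembler genes of the same component, and both were lowest in library B. The P. strigosozonata matches TRINITY_DN15973_c0_g2_i1 and TRINITY_DN15973_c0_g1_i1, both of 446 bp, were lower and less even. TRINITY_DN15973_c0_g2_i1 had 6.14, 2.27 and 3.25 RPKM in A, B and C. TRINITY_DN15973_c0_g1_i1 had 4.80, 2.07 and 2.51. Library A was the high one for both. The fifth, TRINITY_DN45319_c0_g1_i1 of 295 bp, had 12 reads in library A and 0 in libraries B and C, where the floor of 3 counts was 0.0440 CPM in B and 0.0467 CPM in C.

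ATG16, which binds the ATG12 conjugate, was represented mainly by 3 isoforms of TRINITY_DN22690_c0_g1. The most abundant, TRINITY_DN22690_c0_g1_i2, had 4.33, 5.23 and 3.53 RPKM in A, B and C, or 4.36 ± 0.848 (SD, n = 3). The other isoforms averaged 3.65 ± 0.628 and 3.55 ± 0.871 RPKM (SD, n = 3 each). Library C was the lowest for all 3 isoforms. A pair of further ATG16 transcripts had 25 and 11 reads in all.

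ATG6 and ATG9 had a single transcript each, and library A was the lowest for both. TRINITY_DN26810_c0_g1_i1, matched to an APG6-domain protein, had 3.22, 5.37 and 4.78 RPKM in A, B and C, or 4.46 ± 1.11 (SD, n = 3). TRINITY_DN26375_c0_g1_i1, matched to an APG9-domain protein, had 2.80, 3.99 and 3.34 RPKM, or 3.38 ± 0.596 (SD, n = 3). Their ranges overlapped, although ATG6 was above ATG9 in all 3 libraries.

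Summed by product, ATG8 led the autophagy proteins in every library. ATG12 summed to 25.9 ± 4.99 RPKM and ATG16 to 11.8 ± 2.23 RPKM (SD, n = 3 each). The ratio of the ATG8 sum to the ATG12 sum was 15.8, 16.1 and 16.6 in libraries A, B and C, a spread of 0.390 (SD, n = 3) around 16.2. Without the uneven TRINITY_DN13430_c0_g1_i1 the ratio was 8.72, 11.7 and 12.7. Without the uneven ATG12 transcripts of TRINITY_DN15973 as well, it was 13.5, 14.8 and 16.3. Between the most abundant transcript of each it was 18.8, 21.5 and 24.7. The ratio of ATG8 to ATG16 was 36.9, 25.8 and 47.6, and that to ATG9 was 173, 83.9 and 131. In the order ATG8, ATG12, ATG16, ATG6, each product's range over the libraries lay clear of the next. The ranges of ATG6, ATG9 and ATG22 overlapped, and ATG9 was below ATG22 in library A and above it in libraries B and C. With 3 libraries the smallest two-sided p of an exact paired permutation test is 0.25, so none was run.

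**Figure D3:**
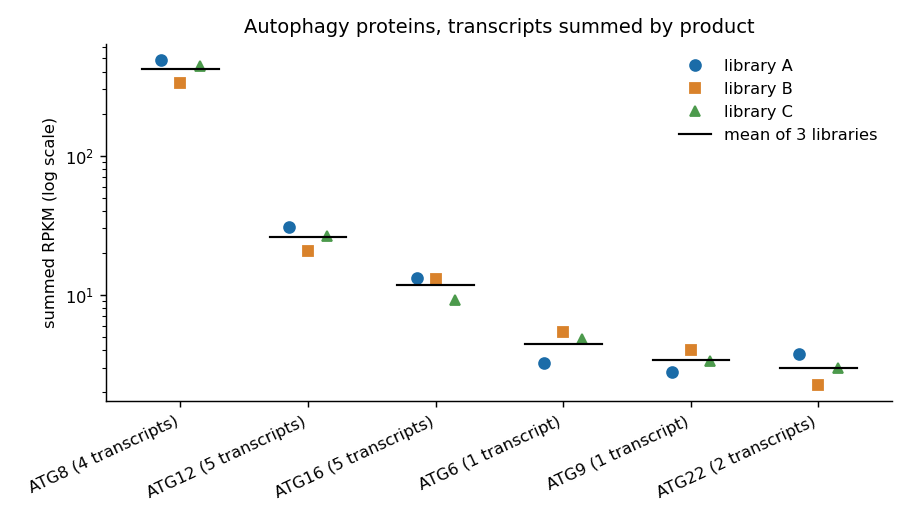
RPKM summed over the transcripts of each autophagy protein, on a log axis, in libraries A, B and C (points) with the mean of the 3 libraries as a line. ATG8 lies between 335 and 485 RPKM in the 3 libraries and ATG12 between 20.8 and 30.7, while ATG6, ATG9 and ATG22 lie between 2.26 and 5.37 RPKM.

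Short transcripts were uneven between libraries more often than long ones. Among annotated transcripts with 10 reads in each library, 44.0% of those below 350 bp differed over 2-fold between highest and lowest library. This is the length class of TRINITY_DN13430_c0_g1_i1. The share was 39.0% from 350 to below 500 bp, 23.7% from 500 to below 1000 bp and 12.9% for longer ones. High shares of reads in library A alone were also more frequent among short transcripts. The uneven ATG8 and ATG12 transcripts, of 309 and 446 bp, had 53.0%, 52.7% and 51.1% of their reads, scaled for depth, in A. Such shares of over 50% were found for 15.3% of the 516 annotated transcripts below 350 bp that reached 10 reads in each library, and for 10.5% of the 534 from 350 to below 500 bp. They were found for 4.48% of the 2431 from 500 to below 1000 bp and for 1.04% of the 8709 longer ones. The length classes were not matched for read number, and counting error is larger near the minimum of 10 reads. TRINITY_DN13430_c0_g1_i1 had 7507, 1918 and 2016 reads in A, B and C, so the shares of its length class may not apply to it. The part of length, of read number and of assembly in pieces, in the values of these transcripts was not tested.

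Few transcripts matched the words used for signals that switch autophagy on or off. Those words leave out any kinase or other signal that carries another product name, so absence from these lists is not absence from the annotation. The list for TOR, the kinase complex that holds autophagy down when nutrients are plentiful, matched 4 transcripts, all of them FKBP proteins. FKBP12 is the binding protein of rapamycin, the drug that inhibits TOR, and none of the 4 names is the kinase itself. The FKBP12 transcript TRINITY_DN5503_c0_g1_i1 of 274 bp had 14.4, 2.89 and 13.8 RPKM in A, B and C, low in library B. The next, the FKBP-like TRINITY_DN24181_c0_g1_i2, had 6.01, 6.07 and 7.19 RPKM. The list for other nutrient-sensing kinases held 3 transcripts, all matched to the regulatory subunit of cAMP-dependent protein kinase. None was named as the catalytic subunit, whose activity represses autophagy in S. cerevisiae. Of the 3 transcripts, TRINITY_DN22119_c0_g1_i1 had 16.6, 22.1 and 26.5 RPKM, and the others had at most 8 reads. A FYVE-domain transcript, the only match of the list for the lipid phosphatidylinositol 3-phosphate, had 7 reads in library A and 0 in the other libraries.

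All 4 ATG8 transcripts had higher means than any transcript named ubiquitin-like or small ubiquitin-like modifier. Of 6 such transcripts, 2 reached 1 RPKM. Over all annotated transcripts the share was 37.9%, which also stands beside the counts of the lists below. The highest ubiquitin-like transcript, TRINITY_DN20006_c0_g1_i1, had 19.2, 14.0 and 14.5 RPKM in A, B and C. Its isoform TRINITY_DN20006_c0_g1_i2 had 12.8, 5.81 and 7.07 RPKM. The proteasome, the other main route of protein breakdown, had 48 transcripts, of which 20 reached 1 RPKM. Its highest, the 20S subunit TRINITY_DN17798_c0_g1_i1, had 65.8, 117 and 101 RPKM, and TRINITY_DN26602_c0_g1_i1, also a 20S subunit, had 52.4, 66.2 and 52.5. The ratio of TRINITY_DN6627_c0_g1_i1 to TRINITY_DN17798_c0_g1_i1 was 2.86, 1.53 and 2.61, above 1 in all 3 libraries. That ratio is between single transcripts and did not hold for the sums. The proteasome list summed to 486, 541 and 430 RPKM in A, B and C, against 489, 337 and 440.3 for the 6 members.

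Fusion of the autophagosome with the vacuole uses SNARE proteins, and a transcript with such a name was about as abundant as the leading ATG8 transcript. Of 80 transcripts named for vacuolar sorting, SNARE or syntaxin proteins, 33 reached 1 RPKM, and the names of SNARE proteins do not give the membrane on which they act. The highest was TRINITY_DN27355_c0_g1_i1, a v-SNARE-domain protein, at 197, 198 and 272 RPKM in A, B and C. The next, TRINITY_DN22828_c0_g1_i1, a SNARE-like protein, had 54.3, 51.3 and 49.2 RPKM. Vacuolar ATPase, the proton pump that acidifies the vacuole, had 17 transcripts with 9 at 1 RPKM or more. Its highest was TRINITY_DN20168_c0_g1_i1 with 46.0, 32.2 and 36.5 RPKM, followed by its isoform TRINITY_DN20168_c0_g1_i2 with 41.1, 25.9 and 34.2. Vacuolar protein 8, which anchors autophagy components at the vacuole in S. cerevisiae and was also looked up after the annotation had been seen, had 1 of 5 transcripts at 1 RPKM or more, TRINITY_DN20660_c0_g1_i1 with 9.22, 11.9 and 9.69 RPKM.

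Peptidases that can act in the vacuole or outside the cell were more abundant still at their upper end. The names do not give the place of action. Of 81 carboxypeptidase and subtilase transcripts, 24 reached 1 RPKM, and the highest, the subtilisin-like TRINITY_DN27983_c1_g1_i1, had 433, 416 and 296 RPKM in A, B and C. The serine carboxypeptidase TRINITY_DN27816_c0_g1_i1 had 142, 234 and 122 RPKM. Of 115 aspartic protease transcripts, 26 reached 1 RPKM, and the highest, TRINITY_DN27281_c0_g1_i1, had 254, 207 and 369 RPKM, and TRINITY_DN489_c0_g2_i1 had 136, 142 and 184. In each of these 2 lists and in that for vacuolar sorting and fusion, 1 transcript had a higher mean than TRINITY_DN6627_c0_g1_i1. In the proteasome, vacuolar ATPase and ubiquitin-like lists none had. None had in the housekeeping list either, which held actin and tubulin names among others. There the order rests on library C, since actin 1 was above TRINITY_DN6627_c0_g1_i1 in libraries A and B.

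**Figure D4:**
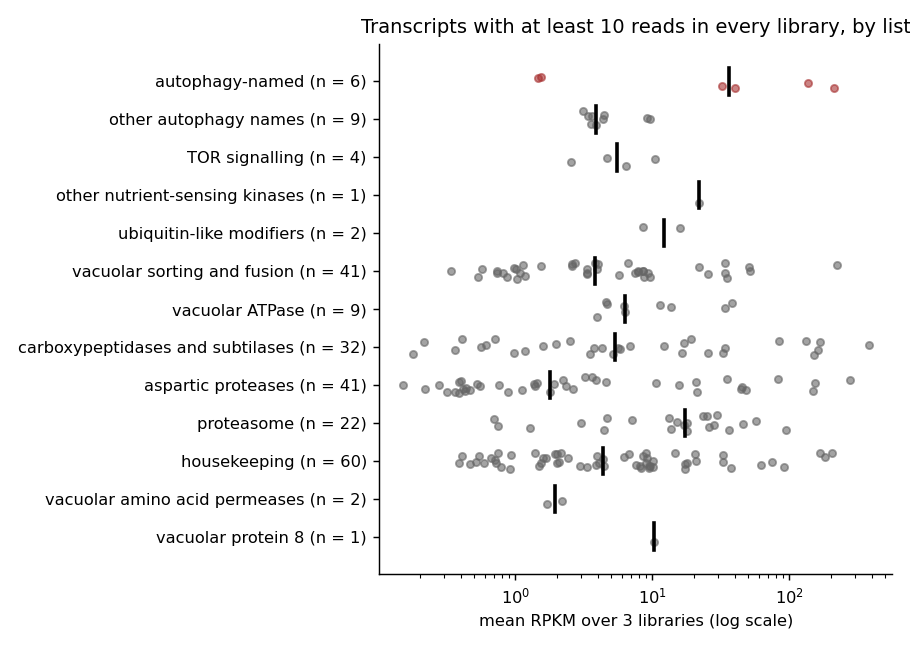
Mean RPKM over the 3 libraries, on a log axis, of each transcript that reached 10 reads in each library, for the 6 autophagy-named transcripts (red) and the related lists (grey), with the median of the transcripts drawn as a bar. The autophagy-named transcripts fall into ATG8 at 32.0 to 210.2 RPKM and ATG22 at 1.47 and 1.53, and the other autophagy names lie between 3.13 and 9.66.

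The annotated transcripts nearest to TRINITY_DN6627_c0_g1_i1 in level and evenness were found by the distance in log2 RPKM over the 3 libraries, among 6895 with at least 100 reads in all, some in every library, and a product name other than hypothetical protein. The nearest was the v-SNARE-domain transcript TRINITY_DN27355_c0_g1_i1, at a distance of 0.17. The ratio of the ATG8 transcript to it was 0.954, 0.903 and 0.970 in libraries A, B and C, and like that transcript it was highest in library C. Next were TRINITY_DN29296_c1_g1_i1, an ARM repeat protein, at 0.34 and TRINITY_DN26971_c0_g1_i1, a short-chain dehydrogenase, at 0.36. TRINITY_DN27965_c0_g1_i1, NADPH oxidase B, lay at 0.38, and TRINITY_DN39661_c0_g1_i1, named S-phase-specific ribosomal protein cyc07, at 0.42. The median distance was 11.03. With 3 points per transcript, this likeness mainly reflects a similar level. The closeness of the ratios follows from the choice by smallest distance and is no separate result.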

How the data were processed

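Whole-number read counts per assembled transcript, with transcript lengths, were deposited by the authors without normalisation, in 3 columns without names. The tools in the submitters' processing notes are Bowtie2 2.2.6, cutadapt 1.2.1 and SAMtools 0.1.19. Neither labels nor headers name the assembler, the counting rule or the strand setting. Best matches came from a database built by the authors, per the file headers. Repeated lines were removed, which left 22605 transcripts of 29875 lines.

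CPM and RPKM were computed from the counts and library totals. The coefficient of biological variation came from edgeR 4.0.16 with an intercept only, on transcripts that reached 10 reads in each library. The fit and the 2-fold limit were also run on simulated counts. Their variation was set below the common value estimated from these data, so that run does not show how the limit performs here. DESeq2 1.42.0 gave alternative size factors. Values are means ± SD over 3 libraries, described by the labels as independent biological replicates. Total counts of 64236917 to 111754018 put the floor of 3 counts at 0.0268 to 0.0467 CPM. The members, lists and alternatives were chosen with earlier results of these data known. Named were all members, the 2 highest transcripts by mean RPKM of each related list with at least 100 reads and the 5 nearest to the most abundant member. Alternatives covered scaling, length, minimum reads, isoforms, matched species and each library left out.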

Additional observations from a re-analysis of the deposited data

How the results depend on the processing

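The members' summed level (422 RPKM), their median (36.1 RPKM) and the fold between the highest and lowest library of the sum (1.45) depended on units and members. Relative to counts outside the pair of most abundant transcripts they were 1362, 116 and 1.60. TPM gave a sum of 818 and a median of 70.0. Length less the read length gave 585, 44.5 and 1.53, and CPM without length 221, 24.0 and 1.33. DESeq2's size factors gave a fold of 1.41. The median was 99.5 with isoforms of an assembler gene summed, 83.5 for P. strigosozonata matches alone and 32.0 with the further isoform of the ATG22 gene included, an alternative chosen after seeing the data. With each library left out, the sum ran from 389 to 465 RPKM, the median from 34.2 to 37.8, the fold from 1.11 to 1.45, the share of the most abundant member from 45.7% to 56.5%, and the number of members over 2-fold from 0 (without library A) to 1. Without length scaling some orders turned. The sum was then highest in library C (238, 182 and 242 CPM in A, B and C), TRINITY_DN6627_c0_g1_i1 led TRINITY_DN13430_c0_g1_i1 in library A (114 and 67.2 CPM), and the longer ATG22 isoform had the higher mean (2.68 CPM, against 0.793 for the shorter). No paired analysis was possible because the samples form 1 group. Depth limits the ATG22 isoforms most, with 39 reads in library B for the shorter one.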
